A study of Mus musculus with 12 samples.

Results

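Mitochondrial fatty acid oxidation and ketone body metabolism were followed through 32 named mouse genes, a fixed list of symbols grouped by function. The list was chosen with earlier results of these data known, so counts over it are descriptions. Each gene was represented by its brightest probe set that carried 1 gene symbol only. 30 of the 32 genes had such a probe set, and all 30 were among the 13598 genes tested. The other members, Ucp2 and Cpt1b, were not analysed here as genes.

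The livers came from 12 male mice aged 6 to 12 weeks, kept under 12 h of light and 12 h of dark, with 3 mice in each of 4 groups. Wild-type mice of Jcl:ICR background were either left on the normal diet or fed bezafibrate, a fibrate drug that activates the nuclear receptor PPARα, mixed into the food at 0.5% w/w and given over 5 days. The third and the fourth group received the same bezafibrate diet and were PPARalpha-null mice, crossed from 129S4SvJae-PPARalphatm1Gonz/J with Jcl:ICR, and Clk/Clk mice, mutant in the circadian gene Clock, on the Jcl:ICR background. All livers were taken at ZT14, that is 14 h after lights on, and 250 ng of total RNA was labelled for a 3′ expression array. Neither mutant was studied untreated, so a mutant's difference at baseline and a difference in its response to the drug cannot be told apart. The null mice also carried a mixed strain background that the wild-type mice did not, and genotype and background cannot be told apart either. The study asked which PPARα-regulated genes depend on CLOCK in the liver.

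Long-chain fatty acids reach the mitochondrial matrix as carnitine esters, made by CPT1 in the outer membrane, carried by SLC25A20 and returned to acyl-CoA by CPT2. The beta-oxidation spiral then repeats a dehydrogenation, a hydration, another dehydrogenation and a thiolytic cleavage, and electrons from the first step pass through the electron transfer flavoprotein and its dehydrogenase to ubiquinone. In liver, much of the acetyl-CoA formed during fasting becomes ketone bodies, which other organs burn. PPARα is known as a main activator of these genes in rodent liver.

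Values are log2 expression per probe set on 1 common scale, so a difference of 1 is a doubling. The array medians lay between 5.45 and 5.50. Arrays of the same group correlated at 0.993 to 0.996 over the probe sets, and arrays of different groups at 0.969 to 0.990. A gene was called when its adjusted p was under 0.05 and its difference reached 1.5-fold. The liver label matched its markers: 7 of 10 listed hepatocyte genes were tested, and their mean level was between 13.56 and 14.03 on every array. 9 tested genes are known to respond to PPARα, among them Pdk4, Fgf21, Cd36, Vnn1 and Ehhadh. All 9 were higher in treated than in untreated wild type, where 12.8% of all genes tested were higher. On the drug 8 of them were lower in null than in wild-type mice, where 8.09% of all genes tested were lower. Treated null mice still showed 6 of the 9 higher than untreated wild type (median 1.72), against 3.96% of all genes tested. Between Clk/Clk and wild-type mice on the drug 0 of the 9 were called by limma, against 9.13% of all genes tested. In limma 3 of them had an unadjusted p under 0.05, where 37.6% of all genes tested had one. Ppara signal itself was lower in the null mice by -0.90 (SE 0.142, adjusted p = 0.000574). Since the sources used here do not place its probes relative to the disrupted part of the gene, this value checks no genotype.

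Bezafibrate raised much of the oxidation pathway in wild-type liver. 15 of the 30 genes rose and 1 fell, where 12.8% of all genes tested rose and 7.77% fell. The median difference of the 30 genes was 0.58 log2, against 0.01 over all genes tested. Either way, 20.6% of all genes tested were called. The 3 treated and the 3 untreated arrays did not overlap for 26 of the 30 genes, as for 56.3% of all genes tested. The rises lay in carnitine transport, in the dehydrogenases, in the later spiral enzymes, in electron transfer and in Ucp3, while none of the 3 ketone genes and neither propionyl-CoA carboxylase gene was called by limma (1 and 2 of them had an unadjusted p under 0.05, as did 55.1% of all genes tested). These are whole-liver RNA values, in which fewer cells of a type and less RNA per cell cannot be told apart.

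In PPARalpha-null mice on the same diet 15 of the 30 genes were lower than in treated wild type and 1 was higher. Over all genes tested 8.09% were lower and 5.35% higher, 13.4% in all. The median of the 30 genes was -0.56, against 0.01 over all genes tested, and 26 genes had no overlap between the groups, as 48.6% of all genes did. In Clk/Clk mice on the diet 1 of the 30 genes, Acad10, was higher than in treated wild type and 0 were lower, where 2.64% of all genes tested were higher, 6.49% lower and 9.13% called either way. The median of the 30 genes in this comparison was 0.07, against 0.02 over all genes. 17 of the 30 genes did not overlap, against 42.3% of all genes tested, and 6 had an adjusted p under 0.05 at any fold, where 24.7% of all genes tested did. 13 had an unadjusted p under 0.05 in limma, 10 higher and 3 lower, where 37.6% of all genes tested had one, 17.7% higher and 20% lower. Both mutant comparisons use the same treated wild-type arrays, which also enter the drug comparison, so the 3 sets of values are not independent.

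**Figure D1:**
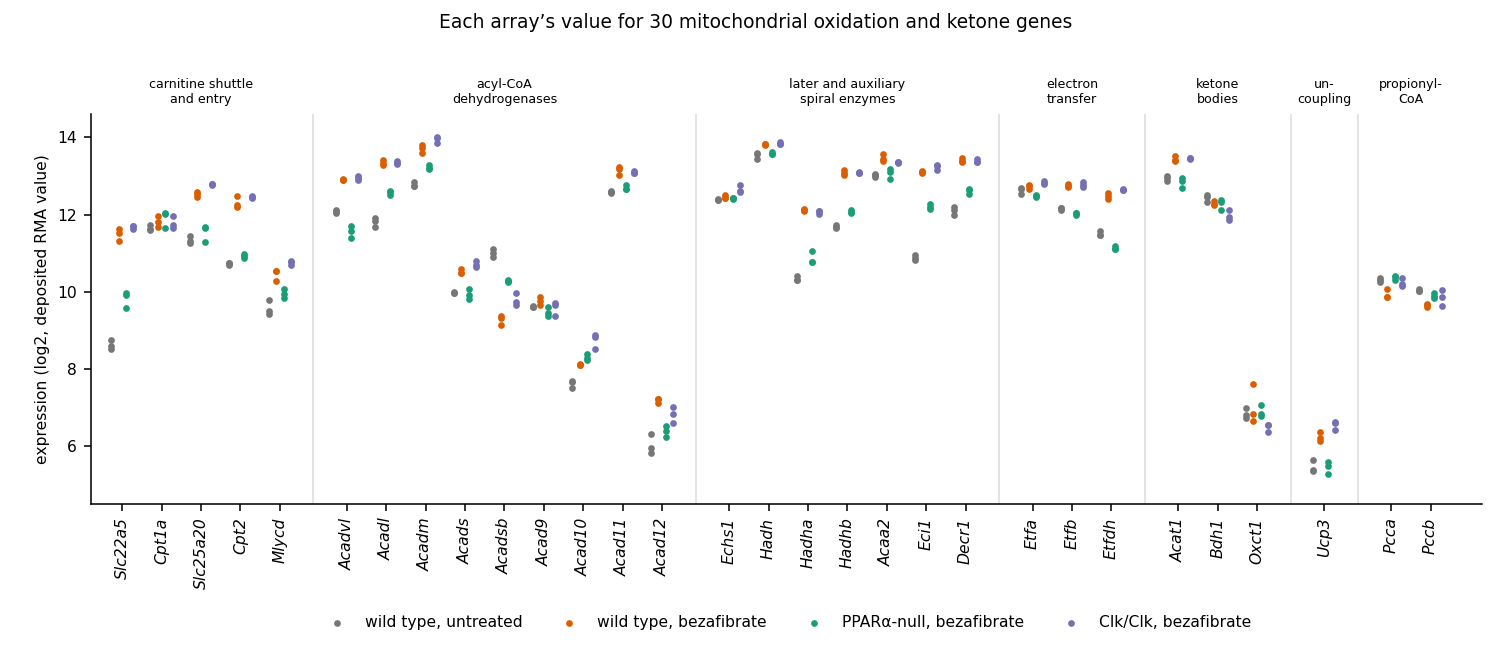
Log2 expression (vertical axis) of the 30 genes, grouped by role along the horizontal axis; each point is 1 mouse liver, with 3 per group, in grey for untreated wild type and in colour for the treated groups. For Cpt2 the untreated wild-type and null arrays lie between 10.69 and 10.98, and the treated wild-type and Clk/Clk arrays between 12.19 and 12.47.

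Carnitine entry held 4 genes that rose among 5 tested. Slc22a5, the plasma membrane transporter that brings carnitine into the cell, read 8.76, 8.59 and 8.51 in untreated wild type, 11.63, 11.31 and 11.52 in treated wild type, 9.57, 9.97 and 9.92 in null and 11.62, 11.70 and 11.70 in Clk/Clk mice. The null arrays lay above the untreated and below the treated wild-type arrays, while the Clk/Clk and treated wild-type arrays overlapped. Bezafibrate raised it by 2.87 (SE 0.116, 7.29-fold, adjusted p = 1.84e-08), the greatest rise of the 30 genes. It was lower in null than in treated wild-type mice by -1.67 (SE 0.116, adjusted p = 1.37e-06) and still 1.20 above untreated wild type (adjusted p = 6.56e-05). The Clk/Clk difference from treated wild type was 0.19, with a 95% confidence interval of -0.07 to 0.44.

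Cpt2, which rebuilds acyl-CoA on the matrix side, read 10.75, 10.69 and 10.73 in untreated wild type and 12.47, 12.19 and 12.25 in treated wild type. It read 10.98, 10.87 and 10.93 in null mice and 12.45, 12.47 and 12.44 in Clk/Clk mice. The null arrays sat just above the untreated ones, with no overlap, and far below both other treated groups. The drug raised Cpt2 by 1.58 (SE 0.076, 2.99-fold, adjusted p = 4.89e-08), and the null difference from treated wild type was -1.38 (SE 0.076, adjusted p = 2.73e-07). Against untreated wild type the null mice differed by 0.20, which did not pass (adjusted p = 0.0814). Slc25a20, the carrier that exchanges acylcarnitine for carnitine across the inner membrane, read 11.45, 11.27 and 11.31 in untreated wild type, 12.54, 12.44 and 12.59 in treated wild type, 11.30, 11.68 and 11.66 in null and 12.79, 12.77 and 12.78 in Clk/Clk mice. Null and untreated arrays overlapped, and the Clk/Clk arrays lay above every treated wild-type array. It rose by 1.18 with the drug (SE 0.099, adjusted p = 2.87e-06) and was lower in null mice by -0.98 (SE 0.099, adjusted p = 2.40e-05). The Clk/Clk difference of 0.26 did not pass (interval 0.04 to 0.47, adjusted p = 0.0814).

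Mlycd, the decarboxylase that removes malonyl-CoA, the inhibitor of CPT1, rose by 0.89 with the drug (SE 0.109, adjusted p = 4.97e-05). Its untreated arrays ran from 9.43 to 9.80 and its treated wild-type arrays from 10.28 to 10.55. In null mice it differed from treated wild type by -0.51, which passed the adjusted p (0.00375) but not the 1.5-fold limit. Cpt1a, the liver form of the outer-membrane enzyme that commits long-chain fatty acids to oxidation, stood apart from these genes. It read 11.61, 11.73 and 11.62 in untreated wild type, 11.97, 11.82 and 11.67 in treated wild type, 12.04, 12.01 and 11.66 in null and 11.73, 11.95 and 11.64 in Clk/Clk mice. All 4 groups overlapped. The drug difference was 0.17 (SE 0.119, interval -0.09 to 0.43, adjusted p = 0.271), and no other contrast passed either. Its 2 dimmer probe sets gave -0.31 and -0.35 for the same comparison, so the probe sets differed in sign. Both dimmer ones passed the p (0.0441 and 0.0408) but not the fold, and the brightest passed neither.

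Among the 9 acyl-CoA dehydrogenases, which start each turn of the spiral and differ in the chain length they accept, 4 rose with the drug, 1 fell and 4 were not called. Acadl, for long chains, read 11.68, 11.92 and 11.82 in untreated wild type, 13.41, 13.29 and 13.34 in treated wild type, 12.50, 12.62 and 12.59 in null and 13.30, 13.39 and 13.33 in Clk/Clk mice. The null arrays formed a middle level with no overlap on either side. The rise with the drug was 1.54 (SE 0.074, 2.91-fold, adjusted p = 4.88e-08), and the null mice were lower than treated wild type by -0.78 (SE 0.074, adjusted p = 1.38e-05) and higher than untreated wild type by 0.76 (SE 0.074, adjusted p = 6.53e-05).

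Acadvl, for very long chains, had another pattern. It read 12.05, 12.09 and 12.11 in untreated wild type, 12.88, 12.91 and 12.91 in treated wild type, 11.40, 11.71 and 11.58 in null and 12.90, 12.95 and 12.99 in Clk/Clk mice. Every null array lay below every untreated array. Bezafibrate raised Acadvl by 0.82 (SE 0.077, adjusted p = 6.80e-06), and the null mice were lower than treated wild type by -1.34 (SE 0.077, 2.53-fold, adjusted p = 3.92e-07). Their difference from untreated wild type, -0.52 (adjusted p = 0.000923), passed the p but not the fold, and reached the fold without 1 null array (-0.60). Acadm, for medium chains, rose by 0.93 (SE 0.074, adjusted p = 1.89e-06), from 12.75 to 12.86 untreated up to 13.60 to 13.81 treated. Its null difference of -0.49 was under 1.5-fold (adjusted p = 0.000403).

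The 250 bases before the start of Acadvl, Acadm and Cpt1a are shown because each holds a single copy of the nuclear receptor hexamer, AGGTCA or its complement TGACCT. Echs1 and 1 of the windows of Pcca hold a single copy too, and of these 5 genes 2, Acadvl and Acadm, rose with the drug and 3 were not called. Capitals mark the hexamer. The 3 shown are RefSeq sequences of build GRCm38.p6, read 5′ to 3′ along the gene, upstream of the annotated start: Acadvl at chr11:70015429-70015678 and Acadm at chr3:153944644-153944893, both on the minus strand, and Cpt1a at chr19:3323051-3323300 on the plus strand.
Acadvl: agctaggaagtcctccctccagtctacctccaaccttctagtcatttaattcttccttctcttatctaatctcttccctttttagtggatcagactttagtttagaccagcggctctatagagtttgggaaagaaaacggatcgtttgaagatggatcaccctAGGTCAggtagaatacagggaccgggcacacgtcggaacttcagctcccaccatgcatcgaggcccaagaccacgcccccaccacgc
Acadm: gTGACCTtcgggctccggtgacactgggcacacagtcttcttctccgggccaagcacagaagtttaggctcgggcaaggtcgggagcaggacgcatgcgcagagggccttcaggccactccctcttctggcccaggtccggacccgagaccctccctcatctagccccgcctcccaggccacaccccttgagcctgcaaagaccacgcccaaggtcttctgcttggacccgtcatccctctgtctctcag
Cpt1a: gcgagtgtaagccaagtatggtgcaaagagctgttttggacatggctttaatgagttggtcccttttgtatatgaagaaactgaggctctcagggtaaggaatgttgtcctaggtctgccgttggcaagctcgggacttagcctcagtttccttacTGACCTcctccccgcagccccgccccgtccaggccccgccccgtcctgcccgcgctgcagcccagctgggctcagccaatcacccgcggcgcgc

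The hexamer alone was common. It was present on either strand in 4607 of 32851 promoters of 250 bases, and in 6 of the 27 member genes (22.2%) that had a promoter window, namely Acadm, Ucp3, Acadvl, Echs1, Pcca and Cpt1a. The full direct repeat that PPARα binds with RXR, AGGTCANAGGTCA, contains this hexamer. No member window, here taken to run from the same 250 bases to a little past the start, held it on either strand, as 0.0396% of all windows did. The form with a free base in each hexamer, AGGNCANAGGNCA, was in 0.381% of all windows and in none of the members'. Both repeats are so rare that 29 member windows were unlikely to hold any, so their absence says little about these genes. The E-box CACGTG, the motif of CLOCK and BMAL1, was in none of the member windows and in 7.15% of all windows. These are matches of letters near the start site only.

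Acads, for short chains, differed by 0.55 with the drug, which passed the p (0.000101) but not the fold. It was lower in null mice by -0.60 (1.51-fold, adjusted p = 0.00011), a call at the edge of the limit that was lost without 1 null array (-0.54) or 1 treated wild-type array (-0.57). Acad12, a further family member at a low level, rose from between 5.83 and 6.33 to between 7.11 and 7.22, by 1.14 (SE 0.135, adjusted p = 3.83e-05), and was lower in null mice by -0.80. Acad11, known for the breakdown of hydroxy fatty acids, differed by 0.56 with the drug, just under 1.5-fold. The dimmer Acad11 probe set gave 0.61 and was called higher (adjusted p = 4.8e-05). Acad9, a complex I assembly factor of the same family, differed by 0.15.

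Acadsb, which acts on short branched acyl-CoA from isoleucine, moved against the rest. It read 11.00, 10.89 and 11.11 in untreated wild type, 9.31, 9.15 and 9.36 in treated wild type, 10.32, 10.24 and 10.28 in null and 9.74, 9.65 and 9.98 in Clk/Clk mice. The 4 groups did not overlap: untreated wild type was highest, null next, then Clk/Clk, with treated wild type lowest. Bezafibrate lowered Acadsb by -1.73 (SE 0.096, 3.31-fold, adjusted p = 1.30e-07), and the null mice were higher than treated wild type by 1.01 (SE 0.096, adjusted p = 1.43e-05). The Clk/Clk difference of 0.52 passed the p (0.00289) but not the fold, and reached it without 1 Clk/Clk array (0.59). Acadsb was measured by 1 probe set, of a type named by the maker as able to match other sequences.

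Acad10, a further family member, was the gene called between Clk/Clk and wild type. It read 7.67, 7.69 and 7.51 in untreated wild type, 8.13, 8.11 and 8.10 in treated wild type, 8.38, 8.29 and 8.23 in null and 8.51, 8.88 and 8.83 in Clk/Clk mice. The groups lay higher in that order with no overlap. The Clk/Clk difference from treated wild type was 0.63 (SE 0.096, 1.55-fold, adjusted p = 0.001), and it fell under 1.5-fold without 1 Clk/Clk array (0.56) or another (0.58). The dimmer Acad10 probe set gave 0.16 there and -0.48 for the drug, against 0.49 on the brighter probe set, so the probe sets of this gene disagreed.

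**Figure D2:**
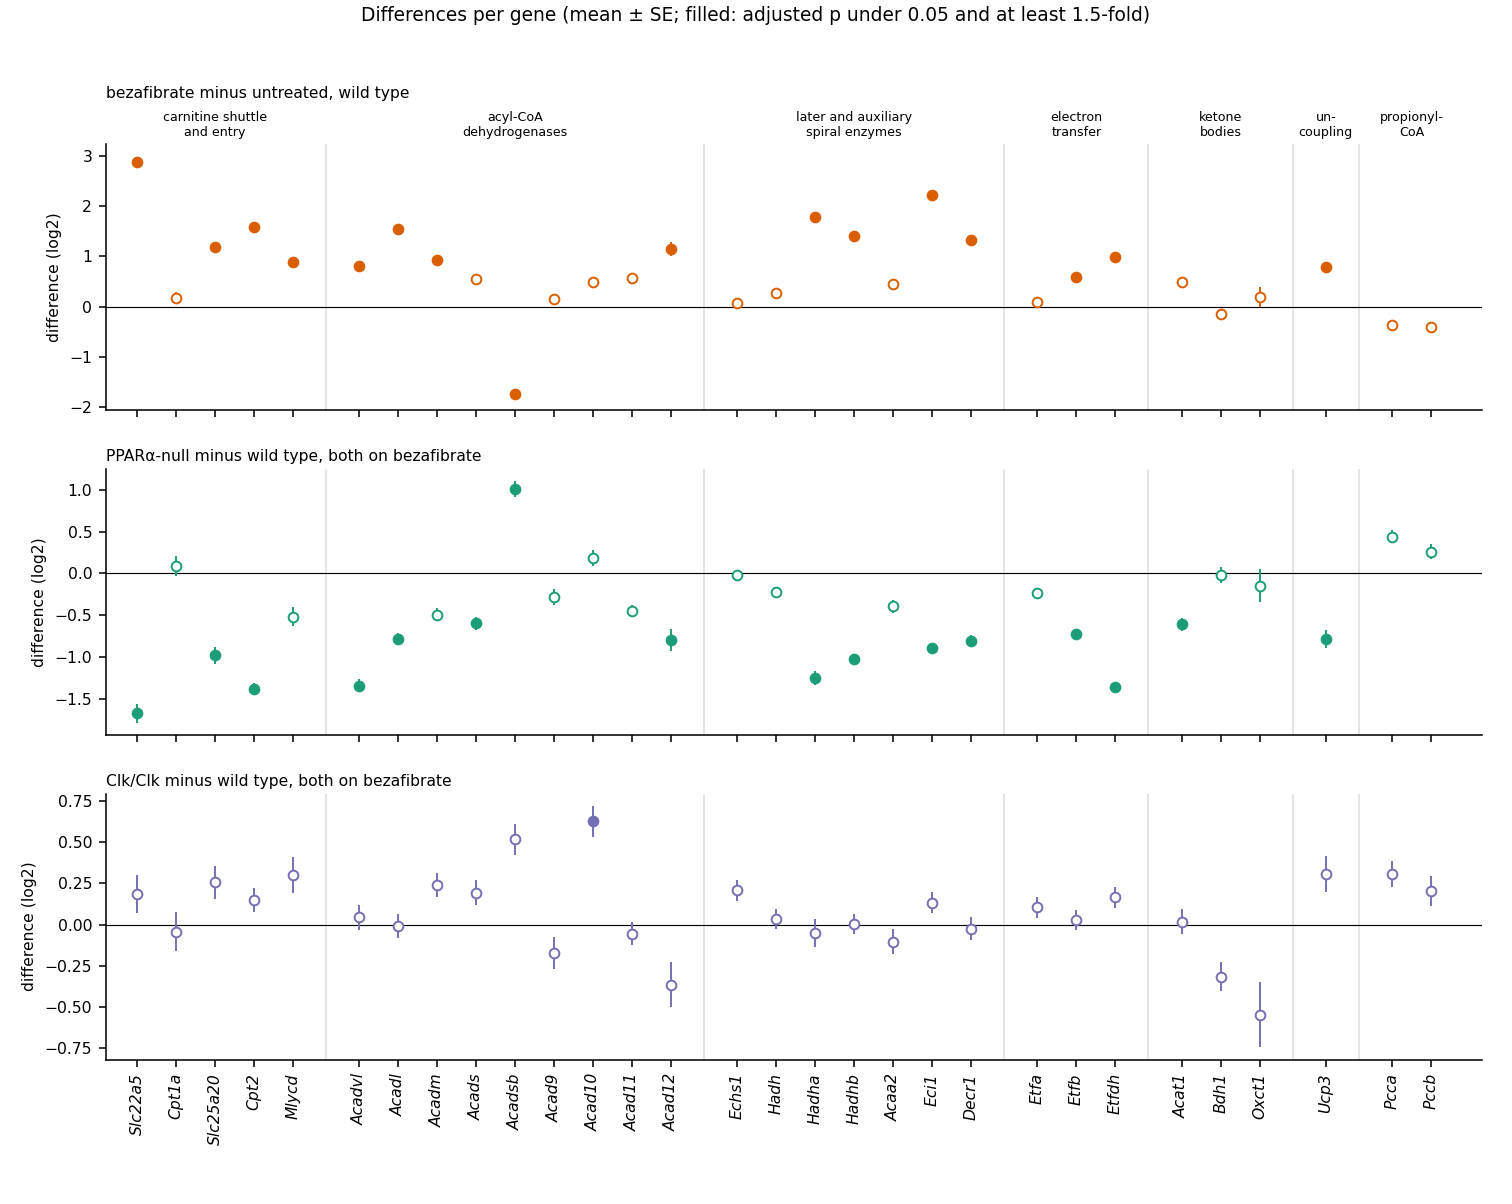
Differences in log2 expression (vertical axes, mean ± SE from the fit, 3 mice per group) for each gene, by role, for bezafibrate in wild type (top), PPARα-null against wild type (middle) and Clk/Clk against wild type (bottom); filled points were called. The vertical scales differ: the top panel spans -1.73 to 2.87, the middle -1.67 to 1.01 and the bottom -0.55 to 0.63.

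Of the 7 later and auxiliary spiral enzymes, 4 rose with the drug and 4 were lower in null mice. Hadha and Hadhb encode the subunits of the trifunctional protein, which carries out the remaining steps for long chains. Hadha read 10.30, 10.30 and 10.42 in untreated wild type, 12.14, 12.08 and 12.11 in treated wild type, 10.76, 11.06 and 10.78 in null and 12.09, 12.09 and 12.00 in Clk/Clk mice. Hadhb read 11.67, 11.66 and 11.73 in untreated wild type, 13.15, 13.03 and 13.08 in treated wild type, 12.03, 12.11 and 12.07 in null and 13.11, 13.09 and 13.06 in Clk/Clk mice. For both subunits the null arrays lay above the untreated arrays and below all others, and treated wild type and Clk/Clk overlapped. Hadha rose by 1.77 (SE 0.083, adjusted p = 4.43e-08) and Hadhb by 1.40 (SE 0.060, adjusted p = 2.45e-08). In null mice the differences from treated wild type were -1.24 for Hadha (adjusted p = 1.09e-06) and -1.02 for Hadhb (adjusted p = 4.45e-07). The Clk/Clk differences were -0.05 (interval -0.24 to 0.13) and 0.00 (interval -0.13 to 0.13). The 2 other Hadhb probe sets rose by 0.63 and 1.19.

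These subunit genes lie head to head on chromosome 5, Hadha on the minus and Hadhb on the plus strand, with 272 bases between their RefSeq start sites. The interval is shown because both genes start from it; it lies at chr5:30154981-30155252 in GRCm38.p6, is written along the plus strand and contains no AGGTCA hexamer, so no letters are in capitals.
Hadha and Hadhb: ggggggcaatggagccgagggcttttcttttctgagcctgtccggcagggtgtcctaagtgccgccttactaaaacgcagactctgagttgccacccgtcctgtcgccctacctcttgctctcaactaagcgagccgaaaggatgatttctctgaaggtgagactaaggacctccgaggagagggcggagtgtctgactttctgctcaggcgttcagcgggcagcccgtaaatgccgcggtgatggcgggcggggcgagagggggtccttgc

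Eci1, the isomerase that shifts double bonds so that unsaturated fatty acids can enter the spiral, read 10.86, 10.81 and 10.96 in untreated wild type, 13.10, 13.08 and 13.12 in treated wild type, 12.15, 12.26 and 12.20 in null and 13.26, 13.28 and 13.15 in Clk/Clk mice. The null arrays were well above the untreated arrays. It rose by 2.22 with the drug (SE 0.065, 4.66-fold, adjusted p = 2.50e-09) and was lower in null mice by -0.89 (SE 0.065, adjusted p = 2.12e-06). Treated null mice still exceeded untreated wild type by 1.33 (SE 0.065, 2.51-fold, adjusted p = 4.45e-07). Decr1, the reductase that clears dienoyl intermediates of unsaturated fatty acids, rose by 1.32 (SE 0.069, adjusted p = 8.67e-08), from between 12.00 and 12.18 to between 13.37 and 13.48, and was lower in null mice by -0.80 (adjusted p = 6.80e-06).

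None of the other 3 spiral enzymes was called with the drug, though 2 passed the p. Echs1, the short-chain hydratase, ran from 12.37 to 12.77 over all arrays and differed by 0.06 with the drug (interval -0.08 to 0.20). Hadh, the hydroxyacyl dehydrogenase for shorter chains, differed by 0.28 and Acaa2, the mitochondrial thiolase, by 0.45. Both passed the adjusted p (0.00291 and 0.000534) without reaching 1.5-fold.

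Electron transfer from the dehydrogenases was represented by 3 genes. Etfdh, the oxidoreductase that hands electrons to ubiquinone, read 11.46, 11.57 and 11.47 in untreated wild type, 12.55, 12.49 and 12.41 in treated wild type, 11.19, 11.10 and 11.10 in null and 12.67, 12.64 and 12.64 in Clk/Clk mice. Etfdh rose by 0.98 with the drug (SE 0.064, 1.98-fold, adjusted p = 4.14e-07) and was lower in null mice by -1.35 (SE 0.064, 2.56-fold, adjusted p = 1.11e-07). The null difference from untreated wild type, -0.37 (adjusted p = 0.0025), was under 1.5-fold. Etfb, the beta subunit of the flavoprotein, read 12.12 to 12.18 in untreated and 12.72 to 12.78 in treated wild type. Its rise of 0.60 (1.51-fold, adjusted p = 9.82e-06) was at the limit and was lost without 1 treated or 1 untreated array (0.58 each). It was lower in null mice by -0.73 (SE 0.059, adjusted p = 4.66e-06). Etfa, the alpha subunit, differed by 0.09 with the drug (interval -0.04 to 0.23) and by -0.24 in null mice. All 3 genes were lower on every null array than on any untreated array, but for Etfa (-0.15, adjusted p = 0.124) and Etfb (-0.13, adjusted p = 0.15) that difference did not pass.

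None of the 3 ketone body genes analysed was called with the drug. Acat1, the mitochondrial thiolase that makes and splits acetoacetyl-CoA, read 12.87, 12.95 and 13.00 in untreated wild type, 13.51, 13.39 and 13.41 in treated wild type, 12.69, 12.94 and 12.86 in null and 13.45, 13.46 and 13.46 in Clk/Clk mice. Untreated and null arrays overlapped, and both lay below the remaining groups. The drug difference was 0.50 (SE 0.075, 1.41-fold, adjusted p = 0.000222). Null mice were lower than treated wild type by -0.61 (1.52-fold, adjusted p = 9.44e-05), a call lost without 1 null (-0.54) or 1 treated wild-type array (-0.57). Its dimmest probe set was called in both of these comparisons with treated wild type: it rose by 0.87 with the drug (adjusted p = 1.56e-05). In Clk/Clk mice it was higher than in treated wild type by 0.62 (adjusted p = 0.000836), also a call, where the brightest gave 0.02.

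Bdh1, which interconverts acetoacetate and beta-hydroxybutyrate, did not differ beyond its spread with the drug (-0.14, interval -0.34 to 0.06). In Clk/Clk mice its arrays, 11.87, 11.94 and 12.11, lay below those of treated wild type, 12.25, 12.35 and 12.26, by -0.32, which passed the p (0.0253) but not the fold. Oxct1, the enzyme that activates ketone bodies for burning and is known to be scarce in hepatocytes, read between 6.36 and 7.62 over all arrays. The highest value was 1 treated wild-type array, whose fellows read 6.83 and 6.66. The Clk/Clk difference of -0.55 did not pass (adjusted p = 0.0638), and became a call (-0.74) without a treated wild-type array that was not the high one. These 3 genes do not measure ketogenesis as a whole.

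Ucp3, a mitochondrial carrier of the uncoupling protein family best known from muscle, was near the lower end of the tested range. It read 5.65, 5.38 and 5.36 in untreated wild type, 6.37, 6.21 and 6.14 in treated wild type, 5.29, 5.49 and 5.58 in null and 6.63, 6.42 and 6.59 in Clk/Clk mice. Untreated and null arrays overlapped and lay below the other groups. It rose by 0.78 (SE 0.108, adjusted p = 0.000122) and was lower in null mice by -0.78 (SE 0.108, adjusted p = 0.000211). The filter for low signal was at 4.87 to 4.92, and the dimmer Ucp3 probe set gave 0.57 and -0.57 without a call. Of 13 skeletal or heart muscle markers 6 were tested and 0 were called by limma in the 3 main comparisons (1 had an unadjusted p under 0.05 in each). Of all genes tested 20.6%, 13.4% and 9.13% were called there. An unadjusted p under 0.05 in limma was found for 55.1%, 44.4% and 37.6%. The mean level of the list was between 4.55 and 4.70 on every array. Whether muscle RNA had a part in the Ucp3 values was not tested. The promoter of Ucp3 is shown because it had 2 such hexamers, in capitals, the most of any member. It lies at chr7:100472741-100472990 on the plus strand of GRCm38.p6, directly upstream of the start (RefSeq).
Ucp3: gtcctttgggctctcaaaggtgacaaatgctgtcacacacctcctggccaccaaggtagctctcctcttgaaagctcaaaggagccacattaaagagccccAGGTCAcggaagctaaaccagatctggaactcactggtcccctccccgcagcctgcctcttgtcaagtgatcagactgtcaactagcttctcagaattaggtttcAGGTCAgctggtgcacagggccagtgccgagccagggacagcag

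Pcca and Pccb, the subunits of the carboxylase that takes up the propionyl-CoA left by odd-chain fatty acids and by branched amino acids, were below untreated wild type by -0.37 and -0.40 with the drug. Pcca read 10.26 to 10.36 untreated and 9.86 to 10.07 treated, and Pccb 10.02 to 10.06 and 9.60 to 9.67. Neither pair of ranges overlapped, and both genes passed the adjusted p (0.00233 and 0.00429) without reaching 1.5-fold. Against treated wild type the null mice differed by 0.44 and 0.26.

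The null mice on bezafibrate were also compared with untreated wild type, a contrast in which genotype, background and drug all differ. 4 of the 30 genes were higher (Slc22a5, Acadl, Acad10 and Eci1) and 1, Acadsb, was lower, where 3.96% of all genes tested were higher, 2.69% lower and 6.65% called either way. The median of the 30 was 0.06, against 0.02 over all genes. 19 of the 30 genes did not overlap, against 39.4% of all genes tested. Acadsb differed by -0.72 (SE 0.096, adjusted p = 0.000489). Acad10 differed by 0.68 on its brightest probe set but by 0.06, without a call, on its dimmer one.

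In Clk/Clk mice against untreated wild type 17 of the 30 genes were higher and 1 lower, where 10.6% of all genes tested were higher, 8.82% lower and 19.5% called either way. The median was 0.76, and 26 genes did not overlap, against 55.2% of all genes. Slc22a5 (3.05), Eci1 (2.35), Cpt2 (1.73) and Hadha (1.72) had the highest values. Acadsb was lower by -1.21 (SE 0.096, adjusted p = 1.62e-06). Acad10, counted as higher, differed by 1.12 on its brightest probe set but by -0.31, without a call, on its dimmer one. The mutants were then set against each other directly. 16 of the 30 genes were higher in Clk/Clk than in null mice and 0 were lower, against 7.43% and 7.78% of all genes tested, 15.2% in all. In limma 2 had an unadjusted p under 0.05 in the lower direction, as did 22.6% of all genes tested. The median was 0.68, and 26 genes did not overlap, as 50.9% of all genes did not. The greatest differences were Slc22a5 (1.85, SE 0.116, adjusted p = 4.62e-07), Cpt2 (1.53, SE 0.076, adjusted p = 9.39e-08), Etfdh (1.52, SE 0.064, adjusted p = 2.60e-08) and Acadvl (1.38, SE 0.077, adjusted p = 2.03e-07). Cpt1a differed by -0.13 (interval -0.39 to 0.14).

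**Figure D3:**
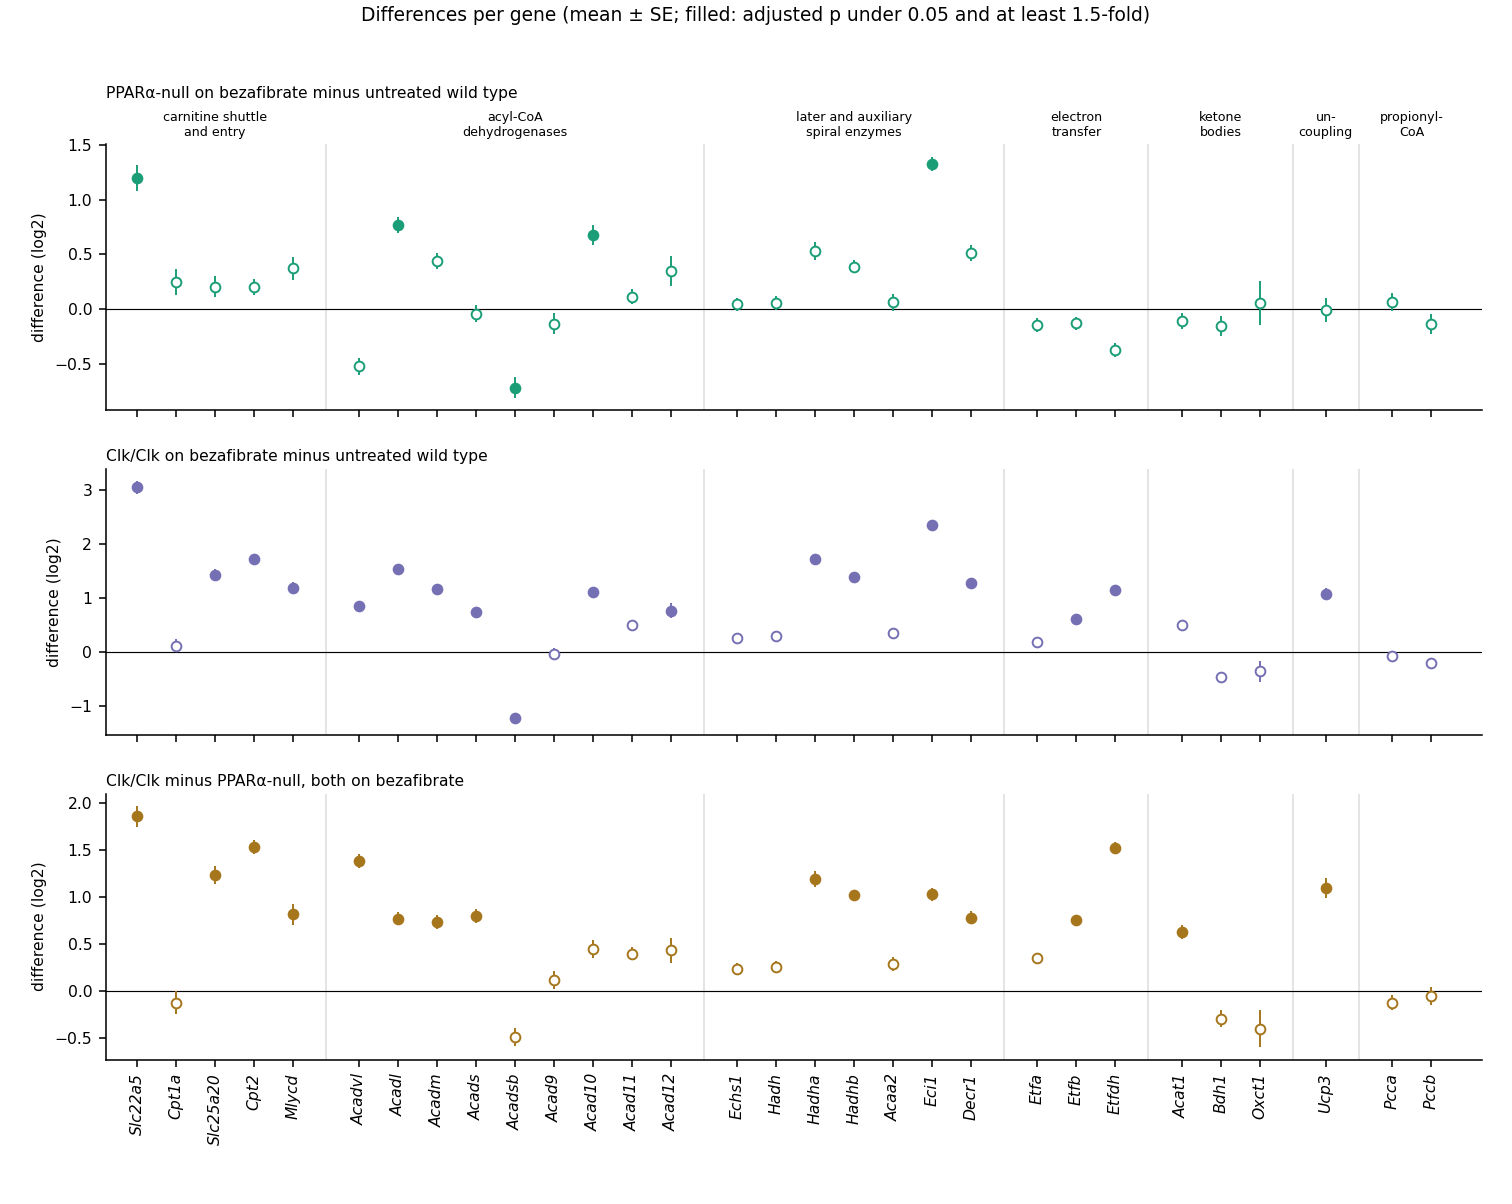
Differences in log2 expression (vertical axes, mean ± SE, 3 mice per group) of treated null mice from untreated wild type (top), of treated Clk/Clk mice from untreated wild type (middle) and of Clk/Clk from null mice, both treated (bottom); filled points were called and the vertical scales differ. Eci1 and Slc22a5 stand highest in the top panel, at 1.33 and 1.20.

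For 26 of the 30 genes the 95% interval of the Clk/Clk difference from treated wild type lay inside 1.5-fold in either direction (0.58 on the log2 scale). The exceptions were Acadsb, Acad10, Acad12 and Oxct1, with point differences of 0.52, 0.63, -0.37 and -0.55. Over all 30 genes the intervals reached from -0.98 (Oxct1) to 0.84 (Acad10). The intervals are those of the brightest probe sets, and the dimmest Acat1 probe set was called higher here (0.62). Small differences that passed the adjusted p without reaching 1.5-fold were 0.24 for Acadm, 0.21 for Echs1 and 0.31 for Pcca, besides those of Acadsb and Bdh1.

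18 of the 30 genes had more than 1 probe set. 21 dimmer probe sets passed the filter, in 14 genes, and 5 did not. In the drug comparison all 6 tested dimmer probe sets of called genes had the sign of the brightest and 5 were called as well. In the null comparison with treated wild type the 8 such probe sets had the same sign and 6 were called. Where the brightest was not called, 2 dimmer probe sets were called in the drug comparison and 0 in this null comparison.

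**Figure D4:**
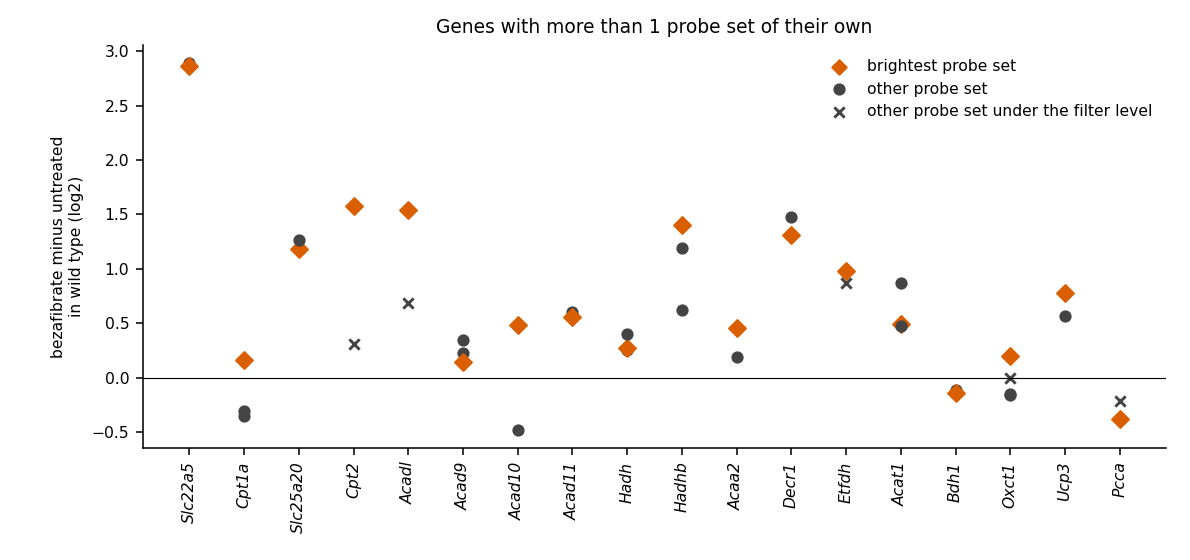
Bezafibrate minus untreated difference in wild type (log2, vertical axis) for each probe set of the 18 genes with more than 1; diamonds are the brightest probe sets, circles dimmer ones and crosses those under the filter level. Cpt1a, Acad10 and Oxct1 have probe sets on both sides of 0.

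Other genes of mitochondrial oxidation and ketone use were read from a list of 34, of which 25 were tested. With bezafibrate 12.8% of all genes tested rose and 7.77% fell in wild type. Of these 25 genes 9 rose and 3 fell (median -0.13). Among those that rose, Acot2 and Acot9, thioesterases of the matrix, did so by 5.32 (SE 0.219, adjusted p = 1.98e-08) and 2.43 (SE 0.106). Hsdl2 rose by 2.25, the ketone body and lactate transporter Slc16a1 by 1.75, the carnitine acetyltransferase Crat by 1.63, Acsl5, an acyl-CoA synthetase, by 1.47, the coenzyme A carrier Slc25a42 by 1.35, the isomerase Eci2 by 1.08 and Acot13 by 0.63. Bdh2, a dehydrogenase with reported activity on hydroxybutyrate, read 8.84 to 9.26 untreated and 5.46 to 6.32 treated, and fell by 3.15 (SE 0.186, adjusted p = 2.11e-07). Hibadh, of valine breakdown, fell by 0.81 and the mitochondrial deacetylase Sirt3 by 0.74. Enzymes of leucine and lysine breakdown were not called, with -0.55 for Ivd, -0.46 for Mccc1 and -0.45 for Gcdh.

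In null mice 8 of these 25 genes were lower than in treated wild type and 2 higher (median -0.10). Over all genes tested 8.09% were lower and 5.35% higher. Acot2 differed by -2.90, Acot9 by -1.30, Hsdl2 by -1.24 and Eci2 by -1.13, while Bdh2 was higher by 3.07 (SE 0.186, adjusted p = 5.37e-07), at 8.79 to 9.03. In Clk/Clk mice 3 of the 25 were higher than in treated wild type and 1 was lower (median 0.33, against 0.02 over all genes). Over all genes tested 2.64% were higher and 6.49% lower. At an unadjusted p under 0.05 in limma, 16 of the 25 were higher and 1 was lower. The shares of all genes tested were 17.7% and 20%. Hsd17b10, a matrix dehydrogenase of isoleucine and short-chain fatty acid breakdown, read 12.47 to 12.66 in Clk/Clk and 11.10 to 11.36 in treated wild type, a difference of 1.33 (SE 0.091, adjusted p = 1.29e-05). Mccc2 was higher by 0.60 and Ivd by 0.59, both in leucine breakdown. Acot9 was lower by -1.17 (SE 0.106, adjusted p = 5.85e-05).

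Genes that control entry into the pathway or its expression were read from a list of 16, all tested. Acaca and Acacb, the carboxylases that make malonyl-CoA, rose with the drug by 1.48 (SE 0.110) and 2.32 (SE 0.145). The coactivator Ppargc1a fell by 2.53 (SE 0.433), Ppara by 0.78, Foxo1 by 0.78, Hnf4a by 0.69 and Rxra, the partner receptor of PPARα, by 0.66. In null mice Ppargc1a was higher than in treated wild type by 2.22 and Foxo1 by 0.75. In Clk/Clk mice Acacb was lower by -0.74 (adjusted p = 0.00408). Of 28 tested genes of the TCA cycle and respiratory chain, 3 (10.7%) rose with the drug, where 12.8% of all genes tested rose. The 3 were Cs (1.55), Mdh2 (0.87) and Idh2 (0.64). In null against treated wild-type mice 0 of the 28 were called, where 13.4% of all genes tested were. Cs alone, 3.57% of the list, was lower in Clk/Clk mice by -0.68 (adjusted p = 0.00138), against 6.49% of all genes tested. In that null comparison limma gave 14 of the 28 genes and 44.4% of all genes tested an unadjusted p under 0.05, the 28 with differences of -0.44 to 0.31.

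**Figure D5:**
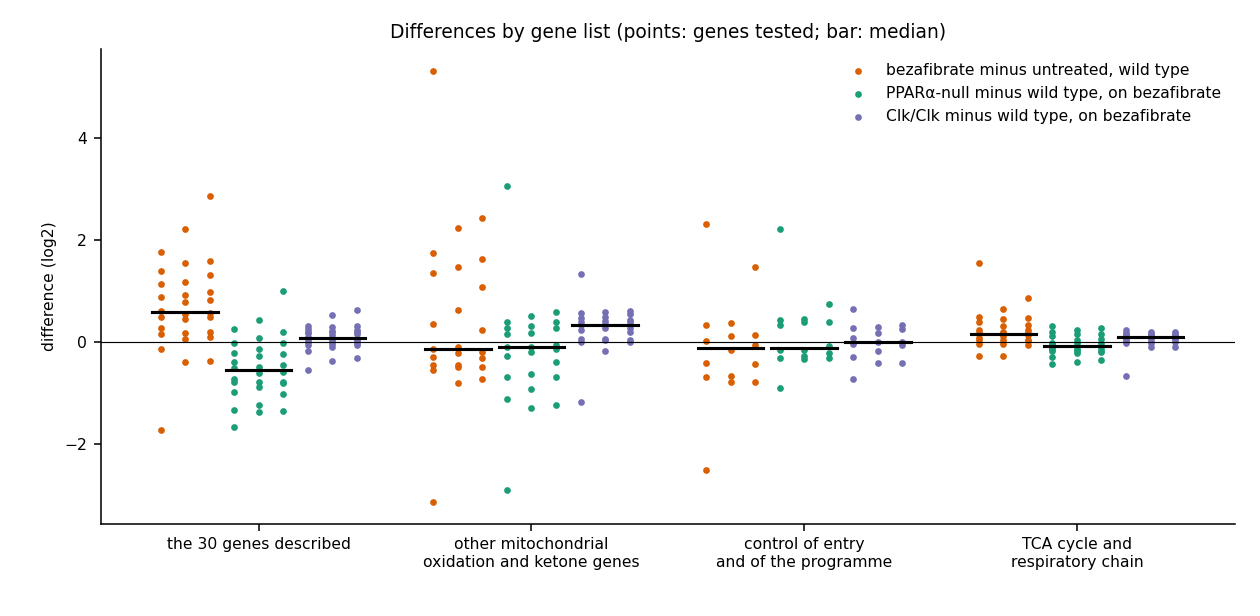
Log2 differences (vertical axis) of the genes tested in each of 4 lists, with 1 point per gene and a bar at the median, for bezafibrate in wild type, null against wild type and Clk/Clk against wild type. The medians for bezafibrate are 0.58 for the 30 genes, -0.13 for the other mitochondrial list and 0.16 for the TCA cycle and respiratory chain.

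Markers of other cell types were read beside these results. Over all genes tested 12.8% rose and 7.77% fell with the drug. Against treated wild type 8.09% of all genes tested were lower in null and 6.49% lower in Clk/Clk mice. Of 8 adipocyte markers 4 were tested, and with the drug 3 rose, Fabp4 from 8.28 to 8.64 up to 13.18 to 13.45, Cidec and Cidea. In null mice 3 were lower than in treated wild type. The defining adipocyte gene Adipoq read 2.95 to 3.52 on the 12 arrays, Lep 3.27 to 3.78 and Ucp1 4.07 to 4.61, all under the filter level. Of 10 macrophage markers, all tested, 1 rose with the drug, 3 were lower in null and 3 were lower in Clk/Clk than in treated wild type. In Clk/Clk mice all 10 differences were below 0 (median -0.55) and 8 genes did not overlap, against 42.3% of all genes tested. In null mice 5 were below 0 and 5 above (median -0.03) and 4 did not overlap, against 48.6%. The mean of this list was 8.83 to 9.06 in untreated wild type, 8.89 to 9.50 in treated wild type, 8.81 to 8.99 in null and 8.44 to 8.77 in Clk/Clk mice. With the drug 3 of 8 endothelial and 2 of 8 stellate markers fell, and 2 of 4 tested cholangiocyte markers rose. Of 7 tested hepatocyte markers 2, Cps1 and Hnf4a, fell. All 7 hepatocyte differences were below 0 (median -0.37) and 6 genes did not overlap, against 56.3% of all genes tested. Against treated wild type, 1 hepatocyte marker was higher in null (median 0.30, 6 above 0) and 1 in Clk/Clk mice (median 0.06, 5 above 0). Of all genes tested 5.35% and 2.64% were higher there. In null mice 1 endothelial marker was higher, and 1 stellate and 2 cholangiocyte markers were lower. In Clk/Clk mice 1 stellate marker was lower and no endothelial or cholangiocyte marker was called. Of 6 tested blood cell markers 1 fell with the drug. Against treated wild type 1 of them was higher and 1 lower in null mice, and 2 were lower in Clk/Clk mice. The part of these markers in the results was not tested.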

How the data were processed

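The deposited values are log2 expression per probe set, made by the authors with RMA (background correction, normalization across arrays and probe summary), per the submitters' processing notes, which name no version or settings. The values ran from 2.25 to 15.0. The platform's annotation gave 1 symbol to 34945 of 45101 probe sets, several to 932 and none to 9160, beside 64 controls. Probe sets with 1 symbol at or above the 40th percentile of non-control probe sets on at least 3 arrays were kept, and each gene was represented by its brightest, which gave 13598 genes. All 12 arrays were fitted together in limma 3.58.1 (R 4.3.3), using lmFit and eBayes for the 4 group means, with 8 residual degrees of freedom before moderation. P-values were adjusted by the Benjamini-Hochberg method over all genes tested, and called genes also differed by at least 1.5-fold. On arrays the number of mice limits the precision. The fit was tested on simulated data. No array date or batch is given in the sources used here.

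The named genes were all members, the genes called from the list of other mitochondrial genes and the control genes; a few uncalled list genes (Ivd, Mccc1 and Gcdh) were added after their values were seen. The members and lists were chosen with earlier results of these data known, so counts over them are descriptions and no list was tested. Promoter windows came from RefSeq (GRCm38.p6), where 27 of the 32 members had one. The single hexamer was searched after the longer motifs gave no match. The alternatives tried were other filters, averaging each gene's probe sets, leaving out suffixed probe sets, quantile normalization, median centring, array weights, robust moderation, fits of 2 groups, a replicate block, other fold limits and leaving out each array.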

Additional observations from a re-analysis of the deposited data

Results flagged for a closer look

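1 probe set outside the gene comparisons carried 3 gene symbols, Cpt1b among them, and was singled out because it was higher in treated than in untreated wild type while no gene is named from it. It read 5.63 to 5.77 in untreated wild type and 10.50 to 10.96 in treated wild type, with a mean of 10.73. In null mice it read 5.98 to 6.17, and in Clk/Clk mice 11.4 to 11.7. The null arrays lay close above the untreated ones and the Clk/Clk arrays above all treated wild-type arrays. Which of the 3 genes gave the signal was not tested.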

How the results depend on the processing

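No member that was called in any comparison changed sign as a call under the alternatives run. With no minimum fold, members called numbered 6 for Clk/Clk against treated wild type (main 1), 12 for null against untreated wild type (main 5), 25 for null against treated wild type (main 16), 25 for Clk/Clk against null (main 16) and 24 for bezafibrate in wild type (main 16), where 24.7%, 21.9%, 35%, 37% and 48.9% of all genes tested were called. At a limit of 2-fold they numbered 0, 2, 7, 9 and 10 in the same order, where 3.41%, 2.38%, 5.54%, 6.78% and 9.13% of all genes were. When each gene's probe sets were averaged, or those with a suffix dropped, 0 members were called for Clk/Clk against treated wild type, since Acad10 fell to 0.39 or was not tested. Without the suffixed probe sets, 27 members were tested and 3 were called for null against untreated wild type. Leaving out each array in turn gave 15 to 17 calls for bezafibrate in wild type, 14 to 17 for null and 0 to 2 for Clk/Clk against treated wild type, 5 to 6 for null and 18 for Clk/Clk against untreated wild type, and 15 to 16 for Clk/Clk against null. The 0 arose without Clk/Clk replicate 3 and the 2 without treated wild-type replicate 3.

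Deviations of same-numbered arrays from their group means correlated at -0.09 to 0.13 (median 0.03). Those of differently numbered arrays correlated at -0.16 to 0.13 (median -0.02). With 3 arrays per group these ranges cannot decide whether the replicate numbers pair the samples. With the replicate block, 16, 16 and 1 members were called in the 3 main comparisons, as without it. Precision is limited by 3 mice per group and, for Ucp3, Acad12 and Oxct1, by low levels, of which those of Ucp3 came nearest to the filter.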
